A study of Mus musculus with 7 samples.

Results

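The matrix metalloproteinases (Mmp), the ADAM and ADAMTS metalloproteinases (Adam, Adamts) and the tissue inhibitors of metalloproteinases (Timp) were followed in livers of miR-122 knockout and wild-type mice. A gene was taken when its platform symbol was Mmp, Adam, Adamts or Timp directly followed by a number with an optional letter, and when a probe set named it alone. This gave 65 of the 18193 genes measured, read by 116 of 34945 single-gene probe sets, and they comprised 18 Mmp, 28 Adam, 15 Adamts and 4 Timp genes. Liver was taken from 4 knockout mice, numbered KO-94, KO-91, KO-90 and KO-03, and from 3 wild-type mice, numbered WT-27, WT-103 and WT-104. All were 2 months old and of B6/129 background, and each mouse gave 1 Affymetrix array. The sources used here do not say how the knockout allele was made, nor the sex, litter or batch of the mice. No single-gene probe set reported miR-122, so the genotypes rest on the sample titles.

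Mmps are zinc-dependent enzymes that cut collagens and other proteins of the extracellular matrix, and in liver they are made largely by stellate cells, macrophages and other non-parenchymal cells. Adams sit in the cell membrane and release the outer parts of receptors, growth factors and adhesion proteins, a step called shedding, while Adamts enzymes are secreted and cut proteoglycans, procollagens and von Willebrand factor. Timps bind the active sites of these enzymes and block them.

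Values are log2 expression values, and differences are knockout minus wild type on that scale. Adjusted p-values come from limma, by the method of Benjamini and Hochberg over all 18193 genes, and a gene was called at an adjusted p under 0.05. Each array had a floor for low values, the brightest of its 27 control probe sets for Bacillus subtilis genes. It lay between 4.71 and 5.23. The same probe set was brightest on all 7 arrays, while the median of the 27 was only 2.86 to 3.14. On every array the floor lay above the median of all probe sets (4.65 to 4.72). The labels do not say whether such control RNA was added, so the floor is a description. A value at or under the floor is read here only as a bound under that choice. A gene at or under it on all 7 arrays is called dim here. Apart from this sorting against the floor, levels of different genes were not set against each other. Each probe set has its own brightness, which limits the sorting too.

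Of the 65 genes, Adam10 and Mmp2 rose in knockout liver and 0 fell. That is 3.08% of them higher, where 2.58% of all genes were called higher, 0.951% lower and 3.53% either way, so the share of called genes was near the background. The differences of the 65 genes lay between -0.24 and 1.28 with a median of 0.07, beside a median of 0.01 over all genes, and 39 were positive and 26 negative, where 52.5% of all genes had a positive difference. At an unadjusted p under 0.05, 14 genes were higher (21.5%) and 0 lower, beside 10.2% and 6.23% of all genes. In 11 genes (16.9%) every knockout array lay above every wild-type array, beside 9.15% of all genes, and in 0 genes every knockout array lay below, beside 6.62%. The 11 include the dim gene Mmp13, whose order of values carries no level. These shares were compared by no test. The family medians were 0.77 for the Timps, 0.23 for the Adamts genes, 0.11 for the Mmps and -0.01 for the Adams.

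**Figure D1:**
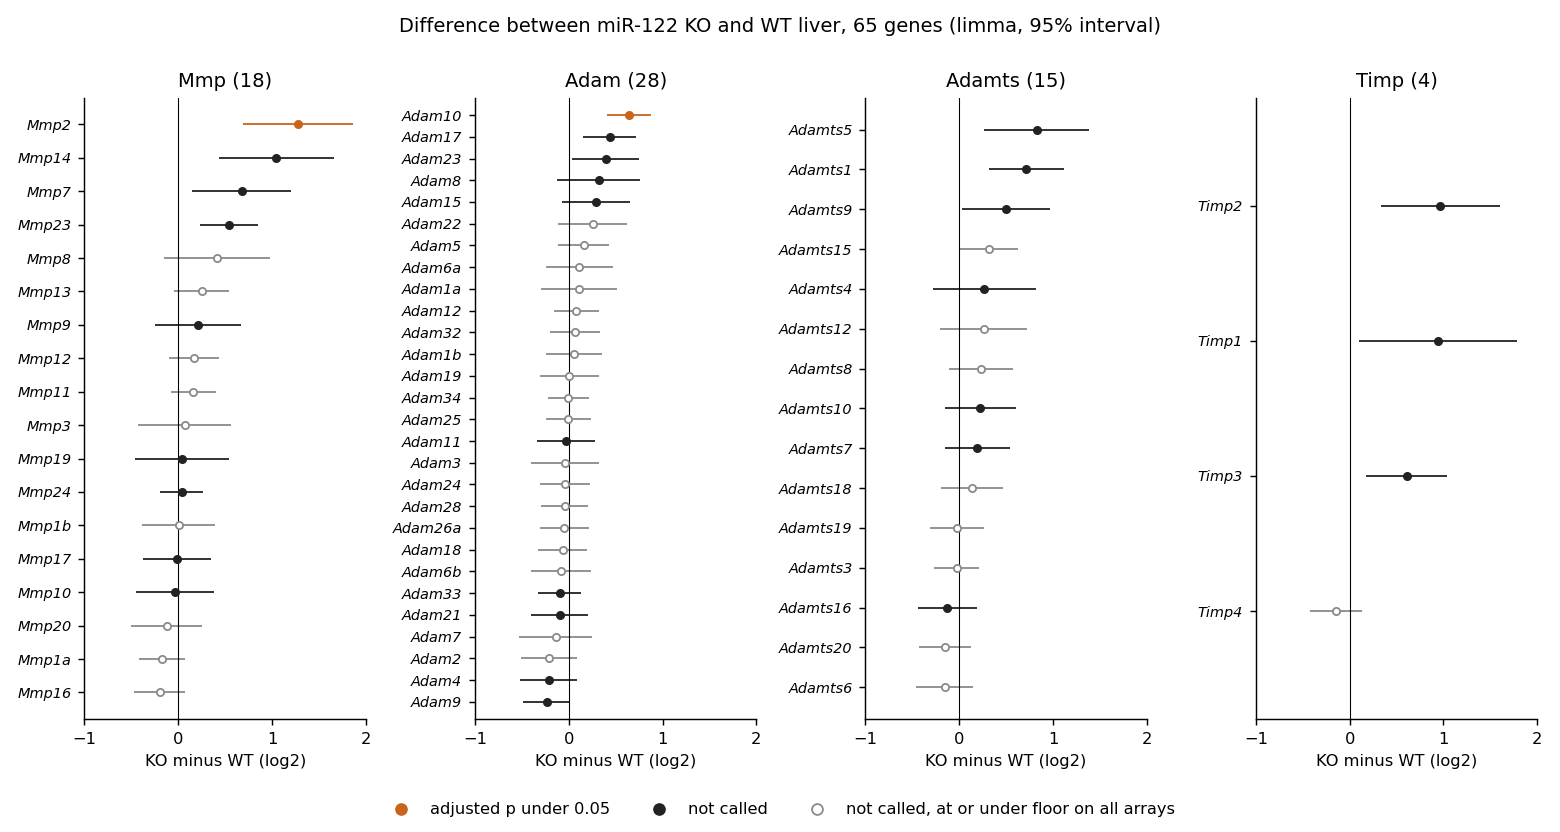
Difference between knockout and wild-type liver (x axis, log2) for each of the 65 genes (y axis), in 4 panels by family; points are limma estimates and lines their 95% intervals. Adam10 at 0.65 and Mmp2 at 1.28 are the genes that passed the test, and most hollow points, the dim genes, lie near 0.

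Adam10 cuts Notch receptors, cadherins and the amyloid precursor protein, and it has been published as a target of miR-122. Its log2 values were 8.98 in KO-03, 8.93 in KO-90, 8.94 in KO-91 and 8.86 in KO-94, against 8.40 in WT-27, 8.19 in WT-103 and 8.26 in WT-104. The same order of mice is kept for the values of other genes. The knockout livers lay closer together than the wild-type livers, and the groups did not overlap. Adam10 averaged 8.93 ± 0.05 (SD, n = 4) in knockout and 8.28 ± 0.11 (SD, n = 3) in wild type, a difference of 0.65 ± 0.10 (SE, limma adjusted p = 0.0135) or 1.56-fold. In whole liver, fewer cells of a type and less RNA per cell cannot be told apart, which holds for every value here. Without WT-103 or WT-104 the adjusted p was 0.0781 and 0.0549, with differences of 0.60 and 0.63.

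Adam17, which releases tumour necrosis factor and ligands of the epidermal growth factor receptor, has also been published as a miR-122 target. Its values were 7.32, 7.70, 7.63 and 7.56 in the 4 knockout livers, against 7.13, 7.02 and 7.20 in the 3 wild-type livers. Every knockout value lay above every wild-type value, with KO-03 nearest to them, but the difference of 0.43 ± 0.12 (SE) did not pass (limma adjusted p = 0.105). Without KO-03 it was 0.51 with an adjusted p of 0.0364. Leaving out any other single array gave no call for Adam17 (limma adjusted p up to 0.339).

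The stretch directly before the annotated start is shown for both shedding enzymes, because it sets them apart from the Mmp cluster described further on. It is the RefSeq sequence of GRCm38.p6, 100 bases 5′ to 3′ along the gene, with each CG pair in capitals; Adam10 lies at chr9:70678882-70678981 on the plus strand and Adam17 at chr12:21373633-21373732 on the minus strand.
Adam10: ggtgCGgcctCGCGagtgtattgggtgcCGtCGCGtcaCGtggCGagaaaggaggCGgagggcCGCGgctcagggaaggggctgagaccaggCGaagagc
Adam17: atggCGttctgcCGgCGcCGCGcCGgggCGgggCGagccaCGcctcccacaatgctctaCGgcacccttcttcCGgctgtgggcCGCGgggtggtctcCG
Both stretches are rich in CG pairs, with 12 and 14, and hold neither of the motifs TGANTCA and TATAAA.

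Among the 9 broadly expressed Adams with shedding activity, Adam10 alone was called, and their median difference was 0.08. Adam9 had 9.36, 9.26, 9.46 and 9.21 in knockout livers, against 9.66, 9.45 and 9.56 in wild-type livers, a difference of -0.24 ± 0.11 (SE, limma adjusted p = 0.341). The groups overlapped slightly, at KO-91 and WT-103. Adam15, Adam8 and Adam33 differed by 0.29, 0.32 and -0.10 with adjusted p-values of 0.432 to 0.714, and Adam12, Adam19 and Adam28 were dim (differences 0.08, 0.004 and -0.04).

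Adam11, Adam22 and Adam23 lack protease activity and are known as brain proteins that bind secreted partners. Adam23 had 6.26, 6.41, 6.78 and 6.84 in knockout livers and 6.14, 6.19 and 6.21 in wild-type livers. The lowest knockout value, in KO-03, lay just above the highest wild-type value, and the difference of 0.39 ± 0.16 (SE) did not pass (limma adjusted p = 0.248). Adam22 was dim (difference 0.25) and Adam11 was near the floor (difference -0.03). Of the other 16 Adams, mostly genes of testis, 14 were dim, with differences of the whole list between -0.22 and 0.16. Adam4 was above the floor throughout, at 5.24 to 5.54 in knockout and 5.52 to 5.89 in wild type, and did not pass (difference -0.22, adjusted p = 0.481). Adam2, a sperm surface protein, was dim (difference -0.21).

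Mmp2, gelatinase A, degrades denatured collagen and basement membrane and in liver is known as a product of stellate cells. Its values were 6.38, 7.11, 6.96 and 6.97 in the knockout livers, against 5.78, 4.97 and 6.00 in the wild-type livers. KO-03 was the lowest knockout liver and WT-103 lay just above its floor of 4.90, with no overlap between the groups. Mmp2 averaged 6.86 ± 0.32 (SD, n = 4) in knockout and 5.58 ± 0.54 (SD, n = 3) in wild type, a difference of 1.28 ± 0.26 (SE, limma adjusted p = 0.0326) or 2.43-fold. The call was lost without WT-27, WT-103, KO-90, KO-91 or KO-94, at adjusted p-values of 0.0727 to 0.0956, and the difference stayed between 0.97 and 1.49 when any single array was left out.

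Mmp14, the membrane-type enzyme that activates the Mmp2 precursor on the cell surface, had 7.69, 8.52, 8.22 and 9.04 in knockout livers, against 7.30, 7.46 and 7.21 in wild-type livers. The wild-type values lay within a narrow band and every knockout value lay above it, KO-03 lowest and KO-94 highest. The difference of 1.04 ± 0.27 (SE) did not pass (limma adjusted p = 0.0769). Mmp23, a membrane-anchored Mmp, had 5.58, 5.76, 5.98 and 5.86 in knockout livers and 5.39, 5.33 and 5.04 in wild-type livers, without overlap, WT-104 being under its floor. It differed by 0.54 ± 0.14 (SE, limma adjusted p = 0.0710). The other membrane-type enzymes Mmp16, Mmp17 and Mmp24 differed by -0.20, -0.01 and 0.03.

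Mmp7, matrilysin, is a small Mmp of epithelial cells, bile duct epithelium among them. It had 5.50, 6.36, 6.46 and 6.50 in knockout livers, against 5.43, 5.66 and 5.48 in wild-type livers. KO-03 lay inside the wild-type range and stood apart from the other knockout livers, which lay above every wild-type value. The difference was 0.68 ± 0.23 (SE, limma adjusted p = 0.183), and without KO-03 it was 0.91 with an adjusted p of 0.00425. Mmp7 was not called when any other single array was left out (limma adjusted p up to 0.383). Mmp9, gelatinase B, was near the floor in both genotypes (difference 0.21, adjusted p = 0.673). Mmp19 lay above the floor throughout and differed by 0.04 ± 0.22 (SE, limma adjusted p = 0.956), within a wide spread of 6.64 to 7.15 in knockout and 6.38 to 7.28 in wild type.

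Timp2 blocks Mmps and also carries the Mmp2 precursor to Mmp14. Its values were 8.47, 9.06, 9.08 and 8.82 in the knockout livers, against 8.62, 7.41 and 7.64 in the wild-type livers. WT-27 stood well above the other wild-type livers and above KO-03, so the groups overlapped, and the difference of 0.97 ± 0.28 (SE) did not pass (limma adjusted p = 0.112). Without WT-27 it was 1.33 with an adjusted p of 0.0194. Leaving out any other single array gave no call for Timp2 (limma adjusted p up to 0.367).

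Timp3 is bound to the matrix and inhibits Adam17 and Adamts enzymes as well as Mmps. It had 7.02, 7.82, 7.79 and 7.45 in knockout livers and 6.95, 6.81 and 6.97 in wild-type livers, KO-03 just above the highest wild-type value. The difference was 0.61 ± 0.19 (SE, limma adjusted p = 0.144). Timp1, a secreted inhibitor known to be induced in injured liver, had 5.11, 5.13, 4.79 and 6.59 in knockout livers, against 4.42, 4.34 and 4.65 in wild-type livers. KO-94 was far above the rest, KO-90 and KO-91 were at or under their floors, and so were all wild-type livers. The fitted difference of 0.94 ± 0.37 (SE) did not pass (limma adjusted p = 0.245), and without KO-94 it was 0.55 with an adjusted p of 0.103. With values on both sides at or under the floor, no bound on the difference is given. Timp4 was dim (difference -0.14).

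**Figure D2:**
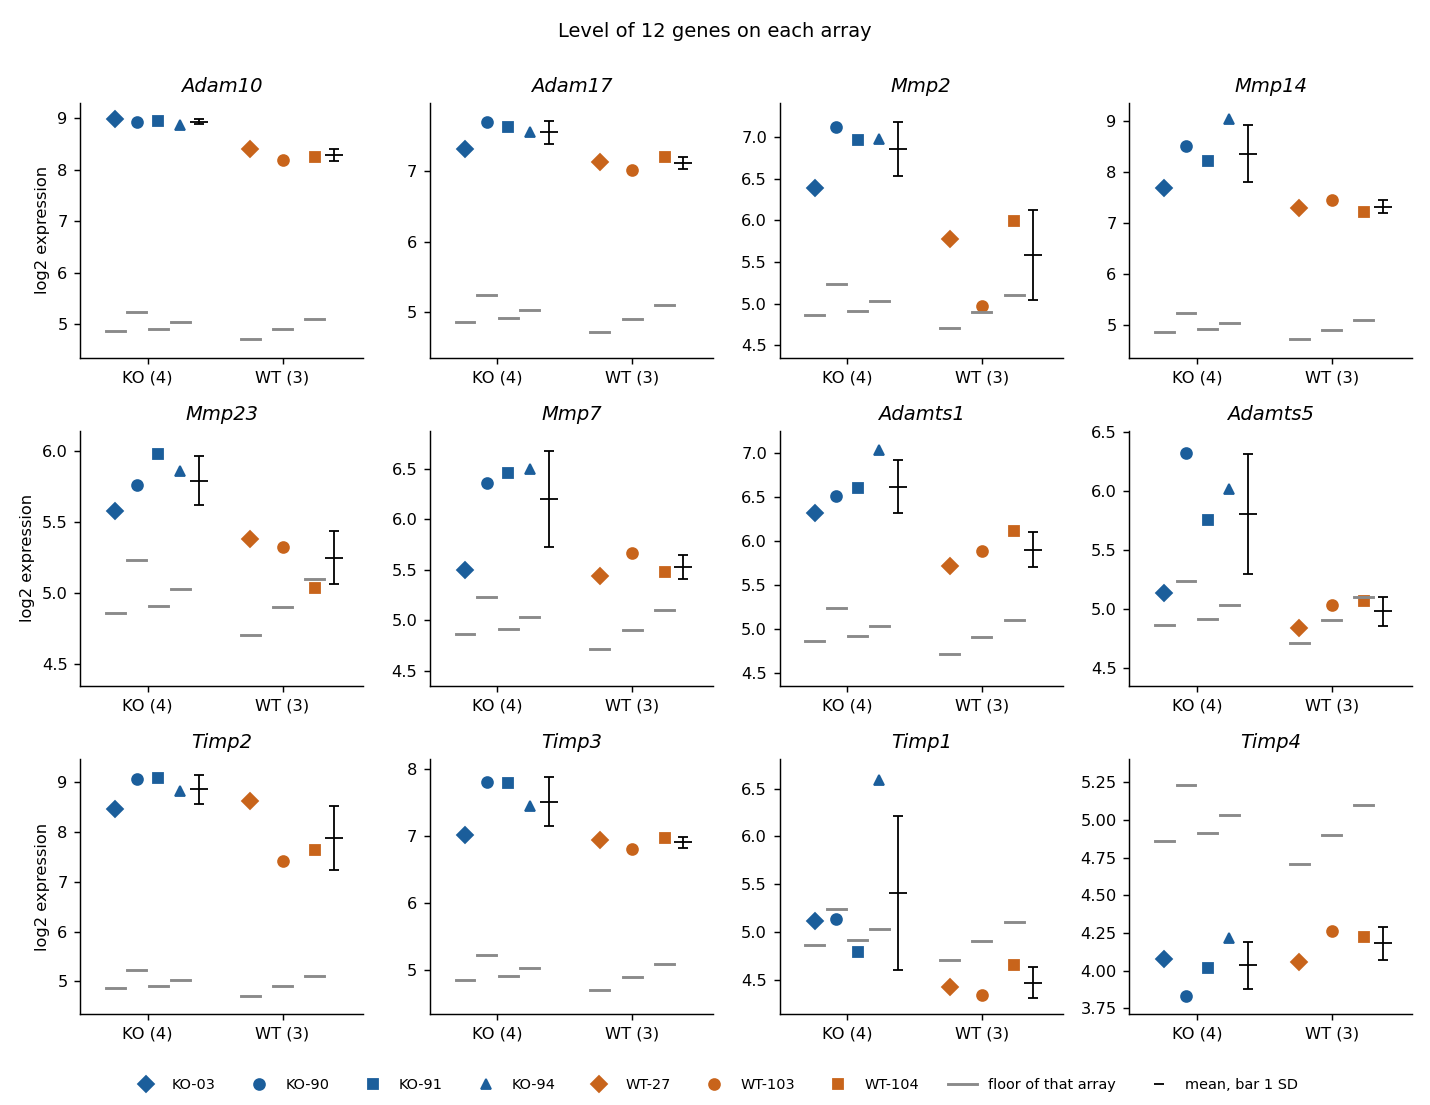
Log2 expression (y axis) of 12 genes on each of the 4 knockout and 3 wild-type arrays; symbols mark single arrays, grey lines the floor of that array, and the black bar the mean with 1 SD. Adam10 shows tight groups at 8.86 to 8.98 in knockout and 8.19 to 8.40 in wild type, while KO-03 is the lowest knockout array for Adam17, Mmp2, Mmp14, Mmp23, Mmp7, Adamts1, Adamts5, Timp2 and Timp3.

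Of the 7 Adamts genes that cut large proteoglycans such as versican and aggrecan, 0 were called. Their median difference was 0.32, beside 0.01 over all genes. At an unadjusted p under 0.05 in limma 4 were higher and 0 lower, beside 10.2% and 6.23% of all genes. Of these 4, Adamts15 was dim and Adamts9 had no wild-type array above the floor. Adamts1 had 6.32, 6.51, 6.61 and 7.03 in knockout livers, against 5.71, 5.88 and 6.11 in wild-type livers. The groups did not overlap, with KO-03 lowest and KO-94 highest among the knockouts (difference 0.72 ± 0.18 SE, limma adjusted p = 0.0678). Adamts5 had 5.13, 6.32, 5.75 and 6.01 in knockout livers and 4.84, 5.03 and 5.07 in wild-type livers, with KO-03 just above the wild-type values and WT-104 under its floor. Its difference was 0.82 ± 0.25 (SE, limma adjusted p = 0.122), and without KO-03 it was 1.05 with an adjusted p of 0.00866. Adamts5 was not called when any other single array was left out (limma adjusted p up to 0.305).

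Adamts9 and Adamts15 differed by 0.50 and 0.32 (limma adjusted p = 0.271 and 0.286), the first with no wild-type array above the floor and the second dim. Among the 7 other Adamts genes 0 were called by limma, 0 had an unadjusted p under 0.05, and the median difference was 0.13. Adamts10, which acts on fibrillin microfibrils, differed by 0.23 ± 0.17 (SE, limma adjusted p = 0.575). Adamts12 was dim (difference 0.26), and so was Adamts3, which trims procollagens (difference -0.03). Mmp15, Adamts2 and Adamts13 were named by no single-gene probe set and were not analysed here.

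Of the 65 genes, 36 were dim, 16 lay above the floor on every array and 13 were mixed, where 54.5% of all genes lay above it on every array. Most of a run of neighbouring Mmp genes on mouse chromosome 9 was dim. In their order along the chromosome these are Mmp13, Mmp12, Mmp1b, Mmp3, Mmp1a, Mmp10, Mmp8, Mmp27, Mmp20 and Mmp7, of which all but Mmp27 were measured. Of the 9 measured, 7 were dim, Mmp10 was above the floor on 1 array and Mmp7 on all 7. Their differences lay between -0.18 and 0.68 with a median of 0.07, and 0 were called by limma, Mmp7 being the 1 gene of them with an unadjusted p under 0.05. Mmp13, an interstitial collagenase, had 2.98, 2.83, 2.81 and 3.23 in knockout livers and 2.76, 2.73 and 2.64 in wild-type livers, all far under the floor, where an order of values carries no level. Mmp1a and Mmp1b, like Adam1a and Adam1b and like Adam6a and Adam6b, are close copies that array probes may not separate.

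Most promoters of the cluster hold 2 motifs close to the start. These are TGANTCA, the site bound by AP-1 factors (read on both strands, since its reverse complement has the same form), and TATAAA, the letters of the TATA box, searched along the gene only. The matches do not overlap in the sequences shown. They are printed because the same pair recurs, in the same order, from gene to gene. The lines give the 100 bases before the start from RefSeq GRCm38.p6, plus strand, with both motifs in capitals, at chr9:7691990-7692089 for Mmp7 (the one of its 2 annotated starts that has the motif), chr9:7502242-7502341 for Mmp10, chr9:7464041-7464140 for Mmp1a, chr9:7445722-7445821 for Mmp3 and chr9:7272414-7272513 for Mmp13.
Mmp7: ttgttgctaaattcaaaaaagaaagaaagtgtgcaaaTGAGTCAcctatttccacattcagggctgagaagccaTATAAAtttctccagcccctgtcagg
Mmp10: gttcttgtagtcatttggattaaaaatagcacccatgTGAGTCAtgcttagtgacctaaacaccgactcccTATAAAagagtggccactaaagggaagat
Mmp1a: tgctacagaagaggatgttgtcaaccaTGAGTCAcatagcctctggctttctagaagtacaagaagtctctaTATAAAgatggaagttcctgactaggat
Mmp3: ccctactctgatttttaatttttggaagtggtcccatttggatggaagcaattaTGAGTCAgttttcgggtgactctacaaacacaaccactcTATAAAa
Mmp13: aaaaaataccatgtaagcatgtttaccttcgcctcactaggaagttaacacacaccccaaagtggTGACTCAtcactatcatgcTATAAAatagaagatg
The AP-1 motif began 63 bases before the start in Mmp7 and Mmp10, 73 in Mmp1a, 46 in Mmp3 and 35 in Mmp13.

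In all, 37 of the 65 genes matched the promoter table, with 42 windows running from 250 bases before to 50 after a start. TGANTCA stood in 8 of the 11 windows of the cluster (72.7%), in 3 of the 31 windows of the other genes (9.68%) and in 7.81% of all 32851 windows of the table. TATAAA stood in 8 of 11, in 1 of 31 and in 8.32% of all windows. The cluster had a median of 1 CG pair per window, against 18 in the other genes and 7 over the whole table. By level, the median was 25 CG pairs for genes above the floor on every array, 8 for mixed genes and 2.5 for dim genes. The CG count was chosen for description after the values were seen, and a motif match is only a match of letters. Mmp14, which had one of the larger differences, holds neither motif in the stretch before its start at chr14:54431498-54431597 on the plus strand, shown with its 5 CG pairs in capitals.
Mmp14: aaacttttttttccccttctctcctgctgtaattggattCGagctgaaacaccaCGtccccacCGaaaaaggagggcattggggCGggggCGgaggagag

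**Figure D3:**
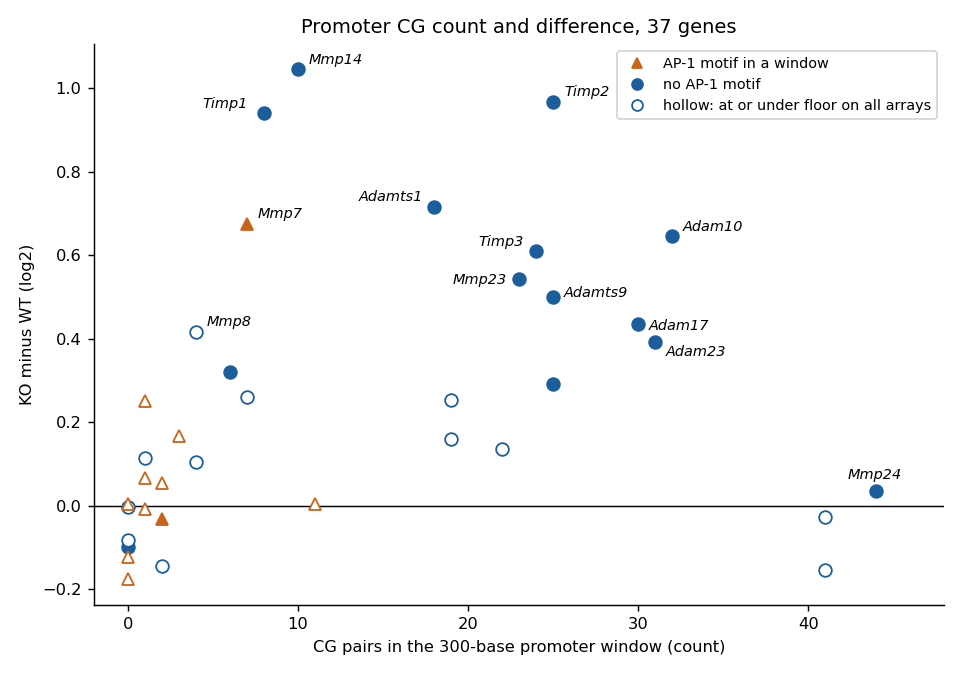
CG pairs in the promoter window (x axis, count) and difference between knockout and wild type (y axis, log2) for 37 genes, with triangles for genes that have the AP-1 motif in a window and hollow symbols for dim genes; a gene with several windows is placed at the one with the most CG pairs. Of the genes with the motif, Mmp7 at 0.68 has the highest difference, and Adam10, Adam17, Timp2 and Timp3 have 24 to 32 CG pairs and no such motif.

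Where a gene had several probe sets, these could be set against each other, as 30 of the 65 genes had more than 1. Over all single-gene probe sets, 1.77% were called higher and 0.515% lower; among the 116 of these genes 7 were higher and 0 lower. For Adam10, 3 of 4 probe sets rose, by 0.65, 0.63 and 1.01, and the fourth was dim (difference -0.03). Both Mmp2 probe sets rose, by 1.24 and 1.28. The one with 1.24 had WT-104 under the floor and the other wild-type arrays just above theirs. With WT-104 raised to the floor its difference was 1.11. The remaining called probe sets were 1 of 4 for Adamts5 (0.67, limma adjusted p = 0.0432, with no wild-type and 1 knockout array above the floor) and 1 of 4 for Timp3 (0.51, adjusted p = 0.0431, with no wild-type and 3 knockout arrays above the floor, and 0.18 with the wild-type arrays raised to it), neither of them the one used for the gene.

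All 6 Timp2 probe sets had positive differences, from 0.22 to 0.97, all 3 Mmp14 probe sets from 0.35 to 1.23, and all 3 Adam17 probe sets from 0.29 to 0.43. The Adamts9 probe sets did not run one way, with differences between -0.22 and 0.50.

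**Figure D4:**
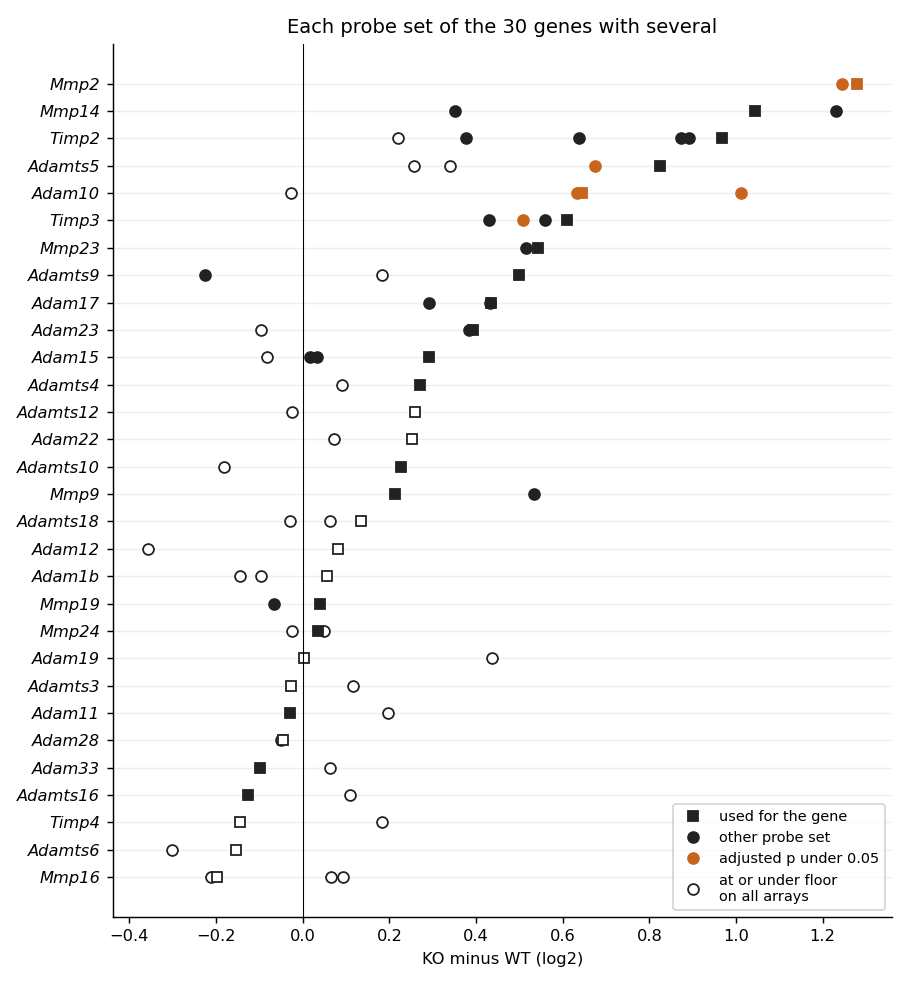
Difference between knockout and wild type (x axis, log2) of every probe set of the 30 genes (y axis) that had several; squares mark the probe set used for the gene, circles the others, orange an adjusted p under 0.05 and hollow symbols dim probe sets. Probe sets of Mmp2, Mmp14, Timp2, Timp3, Adamts5 and Adam17 all lie right of 0, whereas 1 Adam10 probe set lies at -0.03.

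The knockout livers were not alike. Among the 11 genes with every knockout array above every wild-type array, KO-03 was the lowest knockout liver in 8, and the highest was KO-94 in 5 and KO-90 in 4. For the dim Mmp13, which is among them, KO-91 was lowest and KO-94 highest. Among the 16 genes above the floor on every array, KO-03 was lowest in 9 but also highest in 5, while KO-94 was lowest in 4 and highest in 5. Without KO-03, 9 of the 65 genes were called higher: Adam10, Mmp2, Adam17, Adamts1, Adamts5, Mmp14, Mmp23, Mmp7 and Timp3. Without WT-103 the count was 0, without WT-27 it was 2 (Adam10 and Timp2), and without WT-104 it was 1 (Mmp2). Over all 18193 genes 470 were called higher with all arrays. That count was 892 without KO-03, 132 without WT-103, 216 without WT-27 and 243 without WT-104, so it moved with the same arrays.

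**Figure D5:**
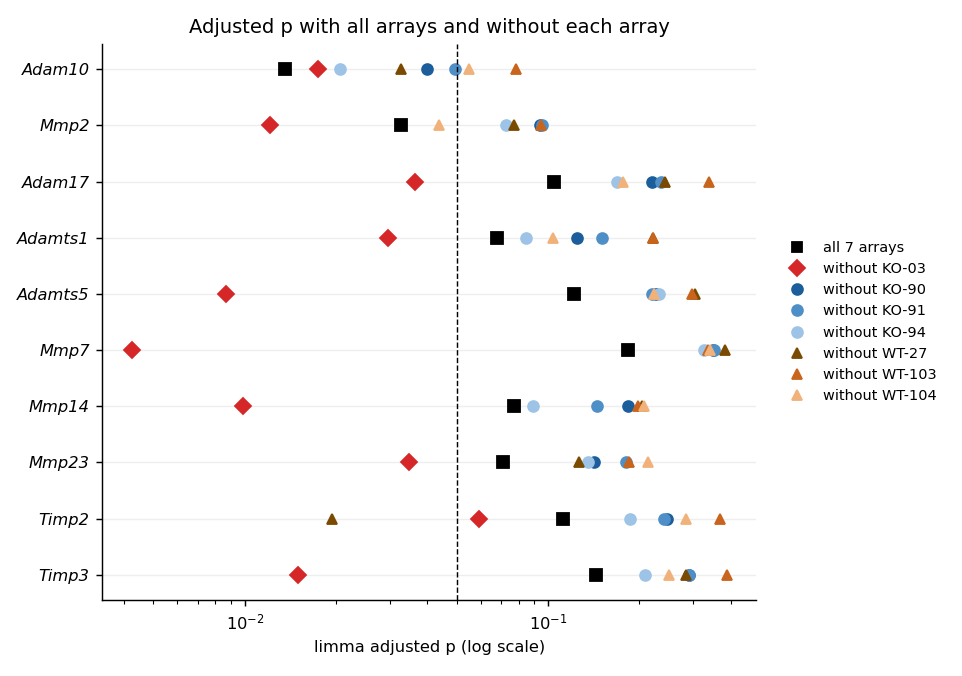
Adjusted p of limma (x axis, log scale) for 10 genes (y axis) with all 7 arrays (black squares) and without each array in turn, with a dashed line at 0.05. Red diamonds, the fit without KO-03, lie left of the line for all genes shown except Timp2, and Adam10 without WT-103 lies right of it at 0.0781.

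Markers of cell types that make these enzymes also differed between the genotypes. Of 12 markers of stellate cells and fibroblasts 8 rose and 0 fell. The mean level of the 12 was 8.09 to 8.68 in knockout livers, against 7.17 to 7.48 in wild-type livers, with KO-03 lowest and KO-94 highest among the knockouts. Those that rose were Col1a1, Col1a2, Col3a1, Lum, Dcn, Pdgfra, Pdgfrb and Hand2. Lrat, Reln, Des and Hgf were not called, with differences of -0.13, 0.34, 0.36 and 0.73 (limma adjusted p = 0.847, 0.328, 0.258 and 0.135). Of 7 bile duct markers 4 rose, at mean levels of 5.16 to 6.28 in knockout and 4.19 to 4.46 in wild type, again with KO-03 lowest. Krt7 and Cftr were dim. The 4 that rose, Krt19, Epcam, Tspan8 and Cd24a, each had wild-type arrays at or under the floor. With those arrays raised to it, their differences of 1.39, 2.18, 3.20 and 2.84 became 1.10, 2.06, 1.70 and 2.73. Without WT-103 the calls were 3 for stellate cells and 2 for bile ducts, and without WT-27 or WT-103 the neutrophil calls described next were 0; without WT-27 the stellate count was 5. With the probe set of each gene chosen on the wild-type arrays alone the bile duct count was 2, and with the mean of all probe sets the stellate count was 5.

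Of 7 neutrophil markers, S100a8 and S100a9 rose (mean levels 5.55 to 6.42 in knockout, 4.66 to 5.04 in wild type), with Cxcr2 and Mpo dim, and 1 was called without probe sets ending in _x_at or _s_at. Of 10 macrophage markers 0 were called and 4 were higher at an unadjusted p under 0.05 in limma, at 8.999 to 9.56 in knockout and 8.59 to 9.14 in wild type. Without KO-03 2 of them were called higher, and 1 without WT-104, with array weights or without KO-03 and WT-104 together. Of 8 endothelial markers 0 were called (2 higher and 1 lower at an unadjusted p under 0.05), at 7.16 to 7.45 in knockout and 7.16 to 7.24 in wild type. Without WT-27, 1 of them was called lower. Of 6 lymphocyte markers 0 were called (0 unadjusted), at 4.63 to 4.93 in knockout and 4.55 to 4.79 in wild type, with Cd3g, Cd79a, Ms4a1 and Nkg7 dim. The 7 hepatocyte markers stood at 13.34 to 13.50 in knockout and 13.12 to 13.30 in wild type with 0 called (1 higher unadjusted, and 1 called without WT-104). A trended limma prior, array weights, both filters on level (given at the end) and the fit without KO-03 and WT-104 also called 1 higher. The part of other cell types in the differences of Mmp2, Mmp14, Mmp7, Adamts1, Adamts5 and the Timps was not tested.

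Of 23 measured regulators and activators of the proteases, 2 rose and 0 fell, with a median difference of 0.18. That is 8.70% called higher, beside 2.58% of all genes, whose median difference was 0.01. The higher count was 4 without KO-03 and 1 without WT-27 or WT-104. Rhbdf1 (iRhom1), which escorts Adam17 to the cell surface, had 6.91, 6.52, 6.97 and 7.07 in knockout livers, against 5.86, 6.09 and 5.77 in wild-type livers, without overlap. It differed by 0.96 ± 0.15 (SE, limma adjusted p = 0.0129), with adjusted p-values of 0.0534 and 0.0551 without WT-27 and WT-104. Adamtsl2, an Adamts-like matrix protein without a protease domain, had 7.95, 8.003, 8.20 and 8.44 in knockout livers and 6.95, 6.97 and 7.14 in wild-type livers, the groups again apart. It differed by 1.13 ± 0.14 (SE, limma adjusted p = 0.00433) and kept its call without any single array (adjusted p up to 0.0290). Tspan33, a tetraspanin of the group that binds Adam10, had 7.02, 6.23, 6.97 and 6.80 in knockout livers, against 7.84, 7.20 and 7.77 in wild-type livers. Every knockout value lay below every wild-type value, and the difference of -0.84 ± 0.22 (SE) did not pass (limma adjusted p = 0.0843). Rhbdf2, the other iRhom, differed by 0.33, and Reck, a membrane-anchored inhibitor of Mmps, by 0.37 (adjusted p = 0.170 and 0.318).

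Of 8 other matrix proteases of the same superfamily 0 were called by limma and 0 had an unadjusted p under 0.05, with differences from -0.09 to 0.23. Of 23 known substrates of Adam10 and Adam17, Tnfrsf1b rose and 0 fell, with a median of 0.30, and 4 were called higher without KO-03. With all arrays that is 4.35% called higher, beside 2.58% of all genes, whose median difference was 0.01. Without KO-03, 892 of all 18193 genes were called higher. Tnfrsf1b, a tumour necrosis factor receptor shed by Adam17, had 7.43, 7.62, 7.27 and 7.65 in knockout livers, against 6.46, 5.94 and 6.47 in wild-type livers. All knockout values lay well above the wild-type values, a difference of 1.20 ± 0.16 (SE, limma adjusted p = 0.00612), called without any single array as well (adjusted p up to 0.0258). With the mean of all its probe sets the difference was 0.75. Tnfrsf1a and App differed by 0.71 and 0.63 and missed the threshold (adjusted p = 0.0685 for both). Of the 23 substrates, 17 had a positive and 6 a negative difference, where 52.5% of all genes had a positive one. These shares were compared by no test. Among the 6 negative ones, Il6ra and L1cam differed by -0.46 and -0.38 (limma adjusted p = 0.352 and 0.262). Arrays measure RNA, so shedding itself was not measured.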

How the data were processed

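Each deposited value is a log2 expression value of 1 probe set on 1 array, which the authors made with RMA (background correction, quantile normalization and probe summary) in Partek, per the labels' design text and the notes on processing. Neither software versions nor probe definitions are named in the sources used here. Genotypes and mouse numbers come from the titles.

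Of 45101 probe sets, 64 controls, 932 with several symbols (5 of them with 1 of the genes studied) and 9160 unlisted ones were left out. A gene with several probe sets was read by the one whose mean across all 7 arrays was highest. The limma package (version 3.58.1, R 4.3.3) fitted knockout against wild type with lmFit and eBayes, as a two-sided test without covariates, with 5 residual and 3.99 prior degrees of freedom. P-values were adjusted over 18193 genes. The model was also tested on simulated data. Gene names follow platform annotation, and all 65 genes were found by Entrez identifier in a RefSeq gene table, which changed 0 symbols. Array values have no read depth behind them, so precision rests on how many arrays there are.

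Named in the text are called genes, the Timps, a list of well-studied genes of these families and, in each role group, the 2 genes with the smallest p. Other genes given with values come from the role groups, the regulators, the substrates or the marker lists, and were chosen after their values were seen. Not every gene of those lists is given. The genes and all lists were chosen with earlier results of these data known. Other priors, scalings, probe set rules and filters on level, and leaving out arrays, were among 21 alternatives. A planned description of protein sequences was not run. Promoter windows came from RefSeq, GRCm38.p6.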

Additional observations from a re-analysis of the deposited data

Results flagged for a closer look

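Mmp7 in KO-03 had a log2 value of 5.50, while the other knockout livers had 6.36, 6.46 and 6.50. Its gap to the nearest of them was 0.864 of the whole knockout range, above Dixon's critical value for 4 samples. It was the 1 case among 32 groups examined, and chance flags about 1 group in 20. Wild-type livers had 5.43, 5.66 and 5.48.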

How the results depend on the processing

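No paired analysis was possible because the numbers of the mice do not recur between genotypes. The 2 genes called higher became 0 at an adjusted p under 0.01, 10 with array weights, 1 with a difference of at least 1, 4 when every probe set was tested on its own, 7 without KO-03 and WT-104 together (added after seeing the data) and 0 to 9 when single arrays were left out. The number called lower was 0 throughout. Over all genes, 470 higher became 141, 909, 258 and 724 under the adjusted p of 0.01, array weights, the difference of 1 and the fit without KO-03 and WT-104, and 132 to 892 without single arrays. The 173 lower became 31, 344 and 66 under the first 3 of these, and 37 to 252 without single arrays. Genes with all knockout arrays above wild type (11) became 7 under both filters on level, which kept 14 of the 65, 26 without KO-03 and WT-104, and 11 to 17 without single arrays. One filter kept genes with a mean over all arrays at or above the median gene, the other those with a higher group mean of at least 6. Neither used the floor. Those with all below (0) became 1 with the mean of all probe sets, 1 with median centring, 2 with renewed quantile normalization, 5 without KO-03 and WT-104, and 0 to 5 without single arrays. The median of 0.07 became 0.12 with array weights, 0.52 under both filters, 0.13 without KO-03 and WT-104 and 0.040 to 0.14 without single arrays. Mmp2, Mmp7, Adamts1, Adam15 and Adamts10 reached a group mean of 6 in knockout only, and all had positive differences. Medians under the filters were thus taken over genes picked partly on their knockout values, and no conclusion is drawn from their rise. Under the filters the medians were 0.68 for Mmps, 0.39 for Adams and 0.47 for Adamts, and with the mean of all probe sets that of Adamts was 0.12. Without KO-03 and WT-104 they were 0.23 for Mmps and 0.066 for Adams. Without single arrays they ran from 0.092 to 0.19 for Mmps, -0.040 to 0.048 for Adams, 0.10 to 0.30 for Adamts and 0.59 to 0.91 for Timps. The filters leave fewer genes, and fits without arrays fewer samples; other causes were not tested.

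Differences near 0 changed sign: with the mean of all probe sets Adam12 (-0.14), Adamts3 (0.045), Mmp19 (-0.013) and Timp4 (0.019); with renewed quantile normalization Mmp19 (-0.028); without single arrays Adam28 (-0.081 to 0.011), Adamts3 (-0.072 to 0.014) and Mmp19 (-0.23 to 0.22); and without KO-03 and WT-104 Adamts10 (-0.0040). With the mean of all probe sets Adam23 and Adamts5 differed by 0.23 and 0.52. Adam10 lost its call in 4 of 21 alternatives (adjusted p up to 0.0781) and Mmp2 in 6 (up to 0.0956). Signal over the floor limits 36 genes to bounds.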
